A study of Mus musculus with 15 samples.

Results

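The transcript content of whole blood was described in 7 libraries, each from a male C57Bl/6 mouse of 10 months whose exposure label read Vehicle. They were the libraries of the series that carried this label, 7 of 15 in all. The other 8 libraries came from offspring of dams given tributyltin (TBT), an organotin, in drinking water, and were not analysed here. The study asked about later effects of that maternal exposure, and the vehicle animals were its controls. The treatment text is the same for all 15 samples and describes the TBT water, so the vehicle group rests on the exposure label alone. No source used here gives the vehicle's solvent, the litters, the bleeding site or whether globin RNA was removed. A liver tumor is named in the labels of vehicle 3, and those of the other 6 animals say nothing of tumors. Libraries are called vehicle 1 to vehicle 7 by the number in their labels, and each was taken as 1 animal.

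Levels are counts scaled to a total of 1000000 per library over all genes (CPM), the spread between animals is the SD or the coefficient of variation (CV, the SD over the mean), and n is 7 unless another number is given. CPM ranks genes by the counts they held, so a long gene ranks above a short one with as many molecules. Values per kb were therefore also computed, by dividing counts by the length of a gene's exons and scaling each library to the same total. The libraries held 6.03 M (vehicle 7) to 10.8 M (vehicle 4) counts, with a mean of 9.38 ± 1.67 M. A gene at 1 CPM thus stood on few counts, and 3 counts corresponded to 0.497 CPM in the smallest library. All 21 pairs of libraries differed by more than counting noise (chi-square per gene 11.1 to 199.8), so none was the same library deposited again. Spearman correlations across genes, which are not independent replicates, lay between 0.940 and 0.977. Vehicle 6 and vehicle 3 stood apart from the rest in opposite ways described below, and values without them are given where they decide a result.

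Blood carries far more red cells than white cells. Mouse red cells lose their nucleus before they enter the circulation, but the youngest of them, the reticulocytes, still hold messenger RNA for haemoglobin and for the enzymes that make haem. Platelets are fragments of megakaryocytes that carry RNA from the parent cell, and most of the remaining RNA comes from neutrophils, monocytes and lymphocytes. The libraries were made from total RNA, so RNA without a poly(A) tail could be counted. In a bulk sample, fewer cells of a type and less RNA per cell cannot be told apart.

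The 4 adult haemoglobin genes and a small gene model of the miRNA class, Gm23935, are among the leading genes by counts, and their sequences show how little separates the copies that the counting had to distinguish. The alpha genes Hba-a1 and Hba-a2 have coding sequences of 429 bases that differ at 1 base (99.8% identical). The stretches below, from GRCm38 (the same build as mm10), run from coding position 322 to 381, with the differing base in capitals (C381T, positions from the start of the coding sequence). They lie at chr11:32284284-32284343 on the plus strand and chr11:32297101-32297160 on the plus strand.
Hba-a1: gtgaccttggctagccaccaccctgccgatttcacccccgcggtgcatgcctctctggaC
Hba-a2: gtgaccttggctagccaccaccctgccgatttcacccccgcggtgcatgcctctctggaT
The beta genes Hbb-bs and Hbb-bt have coding sequences of 444 bases and also differ at 1 base (C417T). Their stretches run from coding position 358 to 417 and lie at chr7:103826692-103826751 and chr7:103812683-103812742, both on the minus strand.
Hbb-bs: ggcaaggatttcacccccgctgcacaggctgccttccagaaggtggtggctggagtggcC
Hbb-bt: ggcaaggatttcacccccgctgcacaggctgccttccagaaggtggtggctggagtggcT
Counts of each copy are therefore uncertain, and the sum of a pair is the safer value.

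Gm23935 is a 57-base gene model at chr16:11144125-11144181 on the plus strand, and 73.7% of its bases are G or C. It overlaps no exon of another annotated gene, and whether it lies within an intron was not checked. It is shown with its relatives because a single library held most of their counts. The models Gm24270 (chr9:56223715-56223771, minus strand) and Gm24245 (chr4:139338304-139338360, plus strand) are identical to it. Gm24187 (chr13:9834469-9834525, minus strand) differs by G11A, counted from 1 at the 5′ end of Gm23935. Gm25911 (chr1:167340369-167340424, minus strand) has G14A and lacks position 34, and the capitals below mark the changed bases.
Gm23935: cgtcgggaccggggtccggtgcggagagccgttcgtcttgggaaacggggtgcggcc
Gm24270: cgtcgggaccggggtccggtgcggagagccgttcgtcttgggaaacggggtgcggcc
Gm24187: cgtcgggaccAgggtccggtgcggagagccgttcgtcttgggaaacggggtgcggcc
Gm25911: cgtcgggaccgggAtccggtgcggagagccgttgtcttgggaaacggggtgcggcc
The sequence occurred in the transcripts of 3 annotated genes, which are the 3 identical models, and its reverse complement in none.

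Few genes held most of the counts. The 25 genes with the highest mean took 53.3% ± 6.13 of all counts (SD, n = 7), and the 100 highest took 64.2% ± 5.93. The number of genes that together held 50% of a library's counts was 22 in vehicle 1, 17 in vehicle 2, 51 in vehicle 3, 8 in vehicle 4, 20 in vehicle 5, 6 in vehicle 6 and 17 in vehicle 7. Vehicle 3 was thus the most even library and vehicle 6 the least even. Of the 25 genes, 10 were on the red cell marker list, including the 4 haemoglobin genes, 3 were encoded by the mitochondrial genome, and 4 belonged to classes other than protein-coding. The order was stable in part: 17 of the 25 were among the 25 highest of every library, and 97 of the 100 highest were among the 200 highest of every library. Ranking by the median over libraries kept 21 of the 25, and ranking per kb kept 16.

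**Figure D1:**
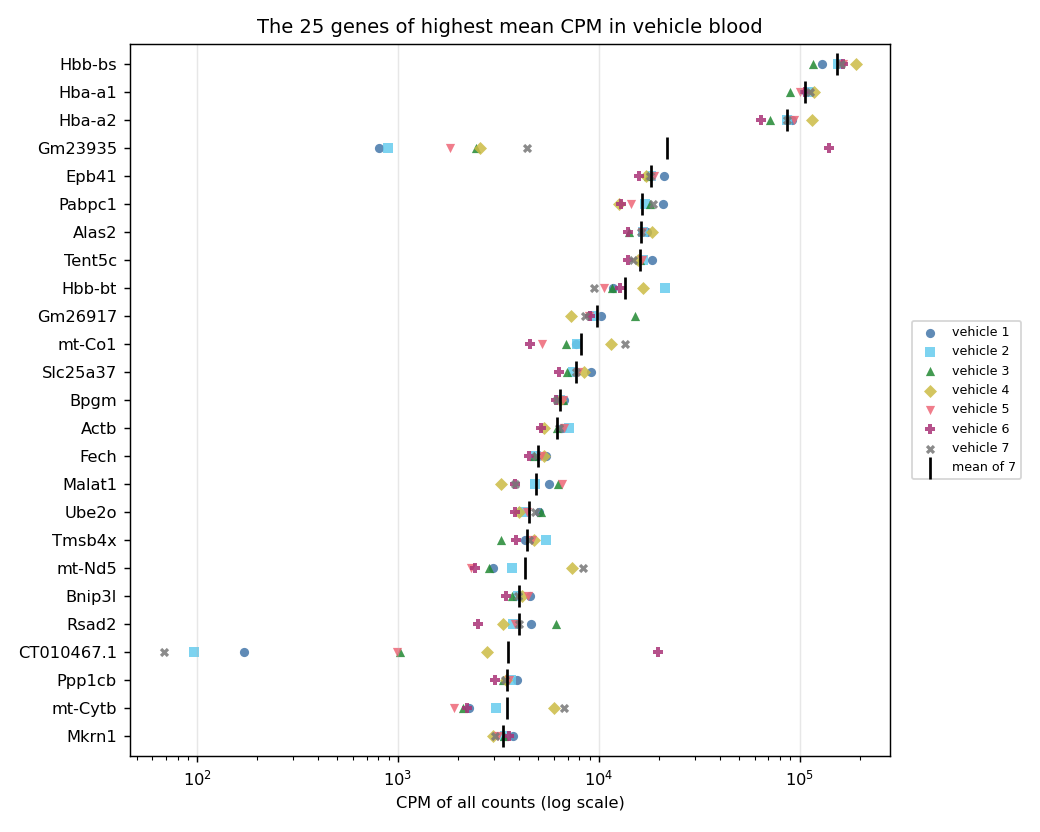
CPM of all counts (horizontal log axis) of the 25 genes with the highest mean, with a row per gene; each dot is 1 library and the tick is the mean of 7. Hbb-bs leads in every library, Bpgm has tightly packed dots, and Gm23935 and CT010467.1 have a dot of vehicle 6 far to the right of the other 6.

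Haemoglobin was the leading product. The share of counts in Hba-a1, Hba-a2, Hbb-bs and Hbb-bt was 34.2% in vehicle 1, 37.5% in vehicle 2, 28.9% in vehicle 3, 44.1% in vehicle 4, 36.9% in vehicle 5, 34.8% in vehicle 6 and 36.9% in vehicle 7, with a mean of 36.2% ± 4.55. Vehicle 3 was lowest and vehicle 4 highest, and the 5 others lay within a narrow range. Hbb-bs, an adult beta chain, held 154370 ± 24480 CPM and had rank 1 in all 7 libraries. Hba-a1 held 106730 ± 9239 CPM and Hba-a2 held 86958 ± 16419 CPM. These 3 genes came in the same order in all 7 libraries. They filled ranks 1 to 3 in 6 of them, while in vehicle 6 Gm23935 had rank 2. Hbb-bt, the other adult beta gene, held 13487 ± 4150 CPM.

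The balance of alpha and beta chains had a lower CV than the balance within either pair of copies, a difference that was not tested. Alpha counts over beta counts gave 1.41 in vehicle 1, 1.12 in vehicle 2, 1.26 in vehicle 3, 1.13 in vehicle 4, 1.11 in vehicle 5, 0.960 in vehicle 6 and 1.18 in vehicle 7, a CV of 12%. Alpha exceeded beta in every library except vehicle 6. The ratio of Hbb-bs to Hbb-bt ran from 7.27 in vehicle 2 to 16.8 in vehicle 7 (CV 26.8%). That of Hba-a1 to Hba-a2 ran from 1.03 in vehicle 4 to 1.65 in vehicle 6 (CV 16.2%). Per kb, Hba-a2 (167369) stood at about the level of Hba-a1 (164154), both under Hbb-bs (247219). The remaining haemoglobin genes, which include embryonic chains, summed to 38.9 ± 2.63 CPM.

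The enzymes and membrane proteins of the reticulocyte followed. Alas2, the enzyme that starts haem synthesis in erythroid cells, held 17473 CPM in vehicle 1, 16572 in vehicle 2, 14083 in vehicle 3, 18431 in vehicle 4, 16508 in vehicle 5, 13935 in vehicle 6 and 16298 in vehicle 7. By CPM its levels in vehicle 3 and vehicle 6 lay under those of the 5 others. On a scale set by the bulk of the genes (TMM, explained below) vehicle 6 no longer lay under them. The lowest library on that scale was vehicle 3 (10441). Fech, which inserts iron into haem at the end of the pathway, held 5006 ± 344 CPM, and Slc25a37, the mitochondrial iron importer mitoferrin, held 7702 ± 912 CPM. Per kb the same genes stood at 8562 for Alas2, 1637 for Slc25a37 and 459 for Fech.

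Among membrane genes, Epb41, which encodes the skeletal protein 4.1, held 18106 ± 1607 CPM and had rank 5. Its exons span 15942 bases, and per kb it had rank 26. Slc4a1, the anion exchanger band 3, held 2609 ± 865 CPM (CV 33.2%), with its lowest value in vehicle 6 (1365 CPM). By TMM its lowest library was vehicle 5 (1614). The erythroid transcription factor Gata1 was at 10.7 ± 0.951 CPM and Klf1 at 0.682 ± 0.355 CPM, which is near the level of a few counts per library.

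Other abundant genes of the red cell included Bnip3l, which clears mitochondria from maturing red cells, at 4030 ± 389 CPM, and Mkrn1, a ubiquitin ligase, at 3328 ± 280 CPM. Ube2o, a ubiquitin enzyme that removes ribosomal proteins from reticulocytes, held 4484 ± 517 CPM. Bpgm makes 2,3-bisphosphoglycerate, the metabolite that lowers the oxygen affinity of haemoglobin. It held 6748 CPM in vehicle 1, 6383 in vehicle 2, 6628 in vehicle 3, 6399 in vehicle 4, 6672 in vehicle 5, 6118 in vehicle 6 and 6211 in vehicle 7. Its CV of 3.71% was the lowest of the 6117 genes examined for spread, and its highest library exceeded its lowest 1.10-fold. On a scale set by the bulk of the genes (TMM, explained below) its CV was 17.7%.

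Of the other protein-coding genes among the 25, Pabpc1, the cytoplasmic poly(A)-binding protein, held 16364 ± 3093 CPM, and Tent5c, a poly(A) polymerase, held 15978 ± 1381 CPM. Ppp1cb, a catalytic subunit of protein phosphatase 1, held 3481 ± 273 CPM. The cytoskeletal genes Actb (beta-actin, 6206 ± 728 CPM) and Tmsb4x (thymosin beta 4, which binds actin monomers, 4405 ± 698 CPM) were the leading members of an actin list of 18 genes at or above 1 CPM. That list summed to 16002 CPM with a CV of 8.15% by CPM and 16.8% by TMM. It had the lowest CV of the lists above 1000 CPM by CPM alone. By TMM the lists of translation (7.04%), interferon response (10.7%), B cells (10.9%) and PCR reference genes (11.4%) were lower.

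Rsad2, which encodes the antiviral protein viperin, ranked 21 and was the highest gene of the 24-gene interferon list. It held 4581 CPM in vehicle 1, 3754 in vehicle 2, 6101 in vehicle 3, 3328 in vehicle 4, 3818 in vehicle 5, 2502 in vehicle 6 and 4006 in vehicle 7. It was high in every library, and its CV was 27.9% by CPM and 10.4% on the TMM scale. The next members of the 24-gene interferon list were Isg15 (56.2 ± 32.6 CPM), Irf7 (52.1 ± 25.3 CPM) and Ifitm3 (52.1 ± 20.2 CPM). Cmpk2, which neighbours Rsad2 on chromosome 12 and is induced with it by interferon, held 13 ± 7.57 CPM. Per kb Rsad2 stood at 1233, Isg15 at 103 and Cmpk2 at 4.32.

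By length-corrected level, short transcripts ranked higher. Gm23935 reached 158060 per kb, rank 4 behind Hbb-bs, Hba-a2 and Hba-a1, and this mean rested on vehicle 6. Rn7sk, the 331-base RNA that holds the elongation factor P-TEFb inactive, had rank 30 by CPM and rank 6 per kb (11667). The platelet chemokine Ppbp (3764 per kb) and B2m, the light chain of class I MHC molecules (3516 per kb), passed Actb (2979 per kb). The share of the red cell list was 41.5% by CPM and 62.3% per kb.

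Below these genes the table was long and sparse. Of 55536 genes, 38183 had a count in at least 1 library, 17353 had none, and 15528 had a count in all 7. A mean of at least 1 CPM was reached by 13143 genes, at least 10 CPM by 6127, at least 100 CPM by 871, at least 1000 CPM by 74 and at least 10000 CPM by 9. The 7016 genes between 1 and 10 CPM held 2.80% of counts, while the 9 genes above 10000 CPM held 45.0%. At or above 1 CPM in every library were 10825 genes. Another 1841 reached it in 1 library alone, 688 of them in vehicle 7, the library with the fewest counts, and 29 in vehicle 6. When every library was thinned to the depth of vehicle 7, the genes with a count numbered 22421 ± 1861, with vehicle 3 highest at 25936 and vehicle 7 lowest at 20682.

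The deposited table sorts genes into 45 GeneBiotype classes, and 11 of these held at least 0.1% of counts. Protein-coding genes held 94.0% ± 5.99 of counts and 11160 of the 13143 genes at or above 1 CPM. The share was 80.5% in vehicle 6 and 95.2% to 96.7% in the other 6 libraries. The miRNA class came next by mean (2.21% ± 5.25), but its share was 14.1% in vehicle 6 and 0.0896% to 0.449% elsewhere. Long intergenic RNAs (lincRNA) held 1.79% ± 0.379 through 295 genes at or above 1 CPM, and this was the largest class outside protein-coding genes in each library other than vehicle 6.

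**Figure D2:**
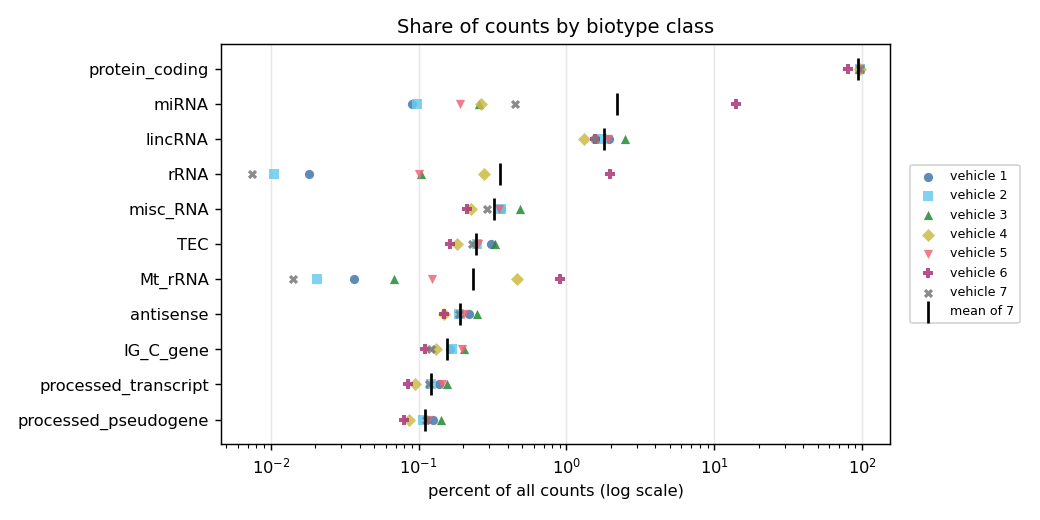
Percent of counts (horizontal log axis) in the 11 GeneBiotype classes that held at least 0.1% of counts, with a dot per library. The miRNA, rRNA and Mt_rRNA classes spread over more than a factor of 10 with vehicle 6 at the top, while the remaining classes outside protein-coding are narrow.

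Several of the smaller classes were carried by 1 gene. Gm23935 made up 98.8% of the counts of the miRNA class, CT010467.1 made up 99.8% of the rRNA class, and Rn7sk 87.6% of the misc_RNA class. Gm26917 made up 54.8% of lincRNA counts, and the nuclear RNA Malat1 (4888 ± 1309 CPM), the model 1810058I24Rik (412 ± 75.6 CPM) and the nuclear RNA Neat1 (317 ± 78.1 CPM) were lower. Gm26917 lies at chr17:39843013-39846341 on the plus strand, beside CT010467.1 (chr17:39846353-39848827, minus strand). CT010467.1 overlaps AY036118 and Gm42418, which had no count in any library. The immunoglobulin constant genes held 0.156% ± 0.0364 with Ighm, the heavy chain of IgM, as 45.2% of them. The TEC class, models awaiting experimental support, held 0.245% ± 0.0610 through 583 genes at or above 1 CPM, and antisense models held 0.192% ± 0.0362, with Tug1 as the highest. The processed pseudogenes, intronless copies of genes, numbered 9941, but 171 of them reached 1 CPM and the class held 0.110% ± 0.0218. Mir451a and Mir144, which encode miRNAs of red cells, had no counts.

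Vehicle 6 differed from the others in its non-coding content. Gm23935 held 804 CPM in vehicle 1, 893 in vehicle 2, 2461 in vehicle 3, 2560 in vehicle 4, 1825 in vehicle 5, 139788 in vehicle 6 and 4406 in vehicle 7. The value of vehicle 6 is 14.0% of its counts (exact 95% interval 13.96% to 14.00%, for counting error only) and was not approached by any other library. The identical model Gm24270 held 1223 CPM in vehicle 6 and 0.313 to 13.8 CPM elsewhere, and Gm24187 held 111 CPM there and at most 10.8 CPM elsewhere. Gm24245 had counts in vehicle 6 alone (1.53 CPM), and Gm25911 held 22.1 CPM there and at most 0.332 CPM elsewhere. How the counting divided reads among these copies was not tested.

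Other genes were high in vehicle 6 together with them, most with vehicle 4 as the next library. CT010467.1, annotated as ribosomal RNA, held 171 CPM in vehicle 1, 96.6 in vehicle 2, 1028 in vehicle 3, 2767 in vehicle 4, 994 in vehicle 5, 19696 in vehicle 6 and 68.6 in vehicle 7. The mitochondrial ribosomal RNA mt-Rnr2 held 5825 CPM in vehicle 6, 2850 in vehicle 4 and 103 to 794 in the other 5. Lars2, the nuclear gene of the mitochondrial leucyl-tRNA synthetase, held 1340 CPM in vehicle 6, 291 in vehicle 4 and 44.6 to 129 in the other 5. The antisense model Gm15564 held 116 CPM in vehicle 6 and 5.00 to 18.4 CPM elsewhere. Gm26917 held 15207 CPM in vehicle 3 and 9044 CPM in vehicle 6, within the 7291 to 10225 CPM of the other libraries, but by TMM its highest library was vehicle 6 (12240). The share of counts outside protein-coding genes was 6.00% ± 5.99 over 7 libraries and 3.75% ± 0.581 without vehicle 6 (n = 6). With Gm23935 left out of the total, the protein-coding share of vehicle 6 was 93.6%, still the lowest. Whether a step of RNA or library preparation, or the animal, differed for vehicle 6 was not tested.

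**Figure D3:**
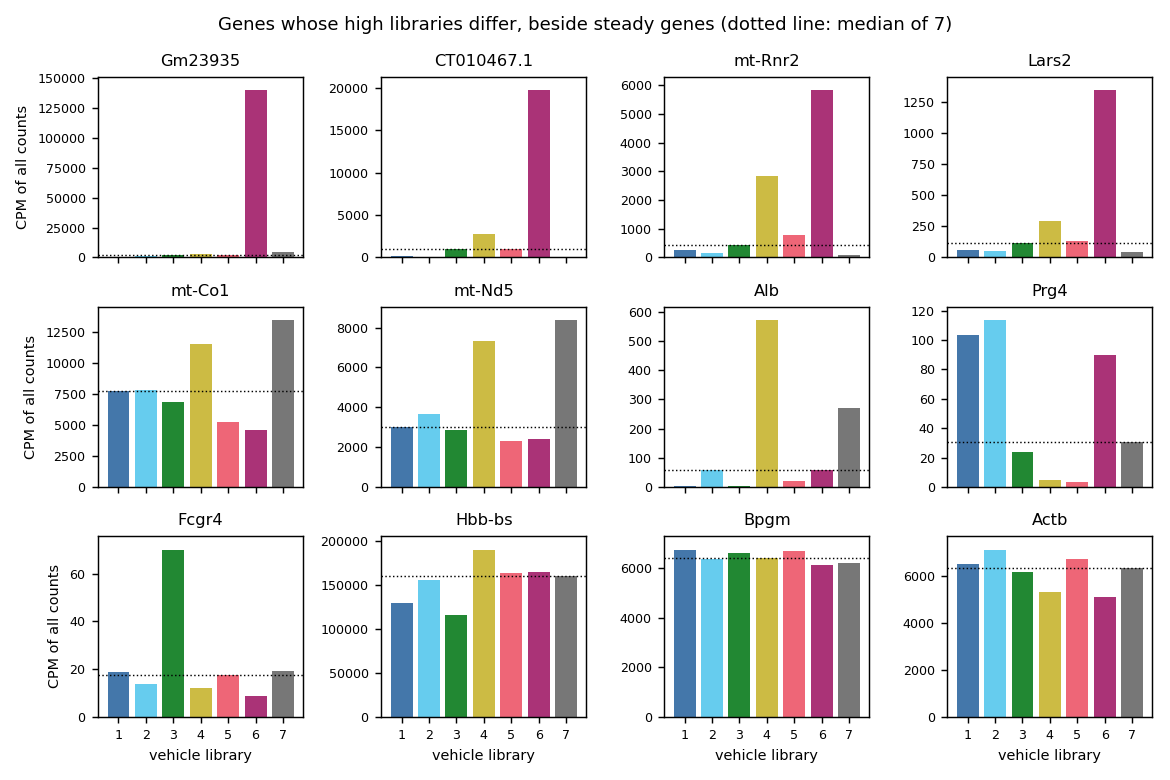
CPM of all counts in each of the 7 libraries (bars from 0) for 12 genes, with the median as a dotted line. Gm23935, CT010467.1, mt-Rnr2 and Lars2 peak in vehicle 6, mt-Co1 and mt-Nd5 in vehicles 4 and 7, and Alb in vehicle 4. Prg4 is high in vehicles 1, 2 and 6, and Fcgr4 is high in vehicle 3. Hbb-bs, Actb and Bpgm vary less by CPM, with the highest library 1.64-fold, 1.39-fold and 1.10-fold the lowest.

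The mitochondrial genome encodes 13 proteins of the respiratory chain and ATP synthase. Their genes held 1.84% of counts in vehicle 1, 2.20% in vehicle 2, 1.70% in vehicle 3, 3.90% in vehicle 4, 1.41% in vehicle 5, 1.39% in vehicle 6 and 4.55% in vehicle 7. Vehicles 4 and 7 were the high libraries, and each of the 13 genes had its maximum in one of them on both scales. Of the 6117 genes examined for spread, 1.01% had their maximum in vehicle 4 and 5.66% in vehicle 7, or 12.8% and 12% on the TMM scale. The levels within the genome were uneven. Per kb, mt-Co1 stood at 6860 and mt-Nd5 at 2995, while mt-Co2 stood at 53.4, mt-Atp6 at 61.1 and mt-Co3 at 10.4, although all but mt-Nd6 are on the same strand. Near-identical copies of parts of the mitochondrial genome exist in nuclear chromosomes, so the counts of these genes may depend on how shared reads were handled, which was not tested.

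**Figure D4:**
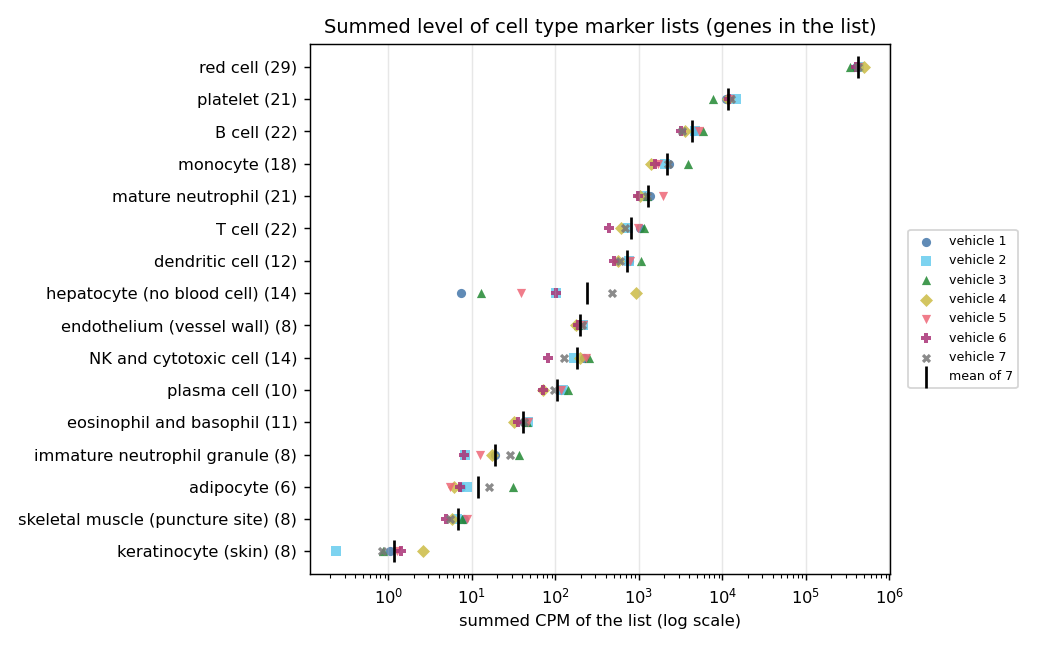
Summed CPM (log axis) of the 16 cell type marker lists, with a dot per library. The red cell list lies far above the others, the platelet list is the next, and the hepatocyte list has the widest spread.

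Markers of every major blood cell type were present, as the tissue label says. The red cell list (28 of 29 matched members at or above 1 CPM) summed to 415356 CPM, the platelet list (21 of 21) to 11692 CPM, the B cell list (22 of 22) to 4329 CPM and the monocyte list (18 of 18) to 2146 CPM. The mature neutrophil list (20 of 21) summed to 1268 CPM, the T cell list (22 of 22) to 798 CPM, the dendritic cell list (12 of 12) to 722 CPM and the NK and cytotoxic cell list (14 of 14) to 183 CPM. The lists differ in length and in the abundance of their members, so these sums order RNA and not cells. The immature neutrophil granule list summed to 18.6 CPM, with 2 of 8 members at or above 1 CPM. The eosinophil and basophil list summed to 41.4 CPM (7 of 11), and the plasma cell list to 105 CPM (9 of 10).

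Platelet RNA was led by Ppbp, the precursor of a platelet chemokine, at 3192 ± 723 CPM. Thbs1, the adhesive protein thrombospondin 1, held 2060 ± 332 CPM, and Nrgn, a calmodulin-binding protein found in platelets, 847 ± 184 CPM. The integrin subunits Itgb3 (780 ± 122 CPM) and Itga2b (690 ± 130 CPM), which form the fibrinogen receptor, stood close together, at 162 and 154 per kb. The chemokine Pf4 held 234 ± 53.4 CPM. The list summed to 10988 CPM in vehicle 1, 14473 in vehicle 2, 7814 in vehicle 3, 11645 in vehicle 4, 12236 in vehicle 5, 11871 in vehicle 6 and 12819 in vehicle 7. Vehicle 3 was lowest by CPM for 19 of the 21 members, against 6.07% of the 6117 genes examined for spread, and for the sum on both scales, while the highest library was vehicle 2 by CPM and vehicle 6 by TMM.

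B cell RNA was led by Cd74, the invariant chain of class II MHC, which other antigen-presenting cells also make, at 723 ± 197 CPM. Ighm held 706 ± 159 CPM and Ighd, the heavy chain of IgD, 431 ± 114 CPM, and the light chain gene Igkc held 316 ± 77.1 CPM. The surface proteins Ms4a1 (183 ± 43.9 CPM) and Cd79a (144 ± 36.8 CPM) were of similar level. The list's CV was 23.4% by CPM and 10.9% by TMM, and its highest library changed from vehicle 3 to vehicle 5. In the T cell list the T cell factor Tcf7 held 64.8 ± 22.8 CPM and the cytokine receptor Il7r 58.9 ± 28.2 CPM. The receptor subunit Cd3e stood at 25.7 ± 9.89 CPM, Cd8a at 21.6 ± 7.71 CPM and Cd4 at 11.8 ± 5.13 CPM. By CPM 59.3% of the 6117 genes were lowest in vehicle 6. It was lowest for 19 of the 22 T cell genes and had the lowest sum on both scales. In the NK list the cytokine receptor Il2rb was highest (34.6 ± 12 CPM), and the NK receptor Ncr1 held 12.6 ± 4.84 CPM.

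Neutrophil genes were highest in vehicle 5. Srgn, a proteoglycan of granules also found in platelets and other leukocytes, held 472 ± 51.1 CPM, and Csf3r, the G-CSF receptor, 240 ± 86.6 CPM. S100a9, a calcium-binding protein that neutrophils hold in quantity, had 130 CPM in vehicle 1, 72.6 in vehicle 2, 132 in vehicle 3, 89.7 in vehicle 4, 256 in vehicle 5, 96.5 in vehicle 6 and 91.7 in vehicle 7. Vehicle 5 was high for it and was highest for 14 of the 20 neutrophil genes at or above 1 CPM, against 8.84% of the 6117 genes. The list's sum was highest there on both scales (1939 CPM against 967 to 1340 CPM in the others). The surface marker Ly6g was at 0.384 ± 0.283 CPM.

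Vehicle 3, the animal with the liver tumor label, stood out in monocyte genes. The monocyte list summed to 2285 CPM in vehicle 1, 2028 in vehicle 2, 3837 in vehicle 3, 1397 in vehicle 4, 1691 in vehicle 5, 1559 in vehicle 6 and 2227 in vehicle 7. By CPM 72.0% of the 6117 genes were highest in vehicle 3, so the CPM alone says little about a list there, and by TMM the figure was 23.8%. On the TMM scale 14 of the 18 monocyte genes were highest in vehicle 3. A list of 14 genes of patrolling monocytes, the non-classical type that moves along vessel walls, was added after values had been seen. All 14 were highest in vehicle 3 on both scales. Fcgr4, an activating IgG receptor of that type, held 70.2 CPM in vehicle 3 and 8.64 to 19.2 CPM in the others. Treml4 (91.3 against 17.6 to 26.3 CPM), Ear2 (85.9 against 15.9 to 26.4 CPM), Ace (377 against 76.7 to 124 CPM) and the growth factor receptor Csf1r (330 against 64.6 to 124 CPM) had the same shape. Of the 9 classical monocyte genes, a list added in the same way, 5 were highest in vehicle 3 by CPM and 3 by TMM. Its most abundant member, Fn1, is also on the peritoneal macrophage list below and was highest in vehicle 1 by CPM and in vehicle 6 by TMM.

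The interferon list had 22 of its 23 genes at or above 1 CPM highest in vehicle 3 by CPM and 19 by TMM. The ribosomal protein and translation factor list had 84 of 91 highest there by CPM and 58 by TMM. Its sum was highest there by CPM but in vehicle 1 by TMM. Of the 6117 genes examined for spread, 72.0% were highest in vehicle 3 by CPM and 23.8% by TMM. With 1 animal of that label no test of the tumor was possible, and the label cannot be told apart from the animal.

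Of the 16 marker lists, the one of hepatocytes, liver cells that are not part of blood, had the highest CV (144%). It summed to 7.40 CPM in vehicle 1, 103 in vehicle 2, 12.9 in vehicle 3, 913 in vehicle 4, 38.9 in vehicle 5, 102 in vehicle 6 and 477 in vehicle 7. Alb, which encodes serum albumin, held 3.02 CPM in vehicle 1, 57.3 in vehicle 2, 4.06 in vehicle 3, 572 in vehicle 4, 19.0 in vehicle 5, 57.1 in vehicle 6 and 272 in vehicle 7. Vehicle 4 was highest for 12 of the 13 hepatocyte genes at or above 1 CPM and vehicle 7 for the other, Cyp2e1 (26.7 against 24.8 CPM). Of the 6117 genes examined for spread, 1.01% were highest in vehicle 4 and 5.66% in vehicle 7, or 12.8% and 12% by TMM. Vehicle 3, with the tumor label, was among the lowest for the sum. Apob (28.1 ± 38.4 CPM), Fga, a fibrinogen chain (9.91 ± 13.1 CPM), and Ahsg (8.39 ± 12.4 CPM) followed Alb in level. Vehicles 4 and 7 were also the libraries highest in the mitochondrial protein genes. Whether the same source carried both was not tested.

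A list of resident peritoneal macrophages, added after values had been seen, varied in another way, with the sum highest in vehicle 2 by CPM and in vehicle 6 by TMM. Prg4, which encodes lubricin, held 103 CPM in vehicle 1, 114 in vehicle 2, 23.8 in vehicle 3, 4.82 in vehicle 4, 3.18 in vehicle 5, 89.5 in vehicle 6 and 30.8 in vehicle 7. The lipoxygenase Alox15 gave 72.9, 88.5, 26.8, 3.15, 5.98, 56.6 and 23.7 CPM in the same order. The matrix gene Fn1 gave 925, 924, 394, 141, 141, 684 and 610 CPM. Vehicles 1, 2 and 6 were thus high and vehicles 4 and 5 low for these 3 genes, which were picked after their values were seen. The most abundant member, the coagulation factor F5 (1168 ± 258 CPM), did not share this shape, with 1005 CPM in vehicle 1, 1210 in vehicle 4, 1216 in vehicle 5 and its highest value, 1423, in vehicle 7. Ltbp1 (244 ± 46.6 CPM) held 218 CPM in vehicles 1 and 4 alike and 257 in vehicle 5. The sum of the list was lowest in vehicle 3 on both scales. Gata6, the transcription factor of these macrophages, was low but followed the pattern, with 3.65, 3.68 and 3.05 CPM in vehicles 1, 2 and 6 and at most 0.943 CPM in the others. The mesothelium list, added for the same reason, summed to 0.482 CPM.

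Markers of tissues around a puncture site were near 0. The skeletal muscle list summed to 6.74 CPM, with the muscle actin Acta1 at 0.0502 CPM and the creatine kinase Ckm at 0.0691 CPM. The keratinocyte list summed to 1.18 CPM, with Krt5 at 0.0135 CPM. The adipocyte list summed to 11.7 CPM, of which Fabp4, which some macrophages also express, made up 11.0 CPM, while Adipoq was at 0.0170 CPM. The levels of Krt5 and Adipoq are under 0.0457 CPM, which 3 counts over all 7 libraries stand for. The endothelial list summed to 196 CPM, of which Pecam1, which platelets and leukocytes also carry, made up 185 CPM, and Cdh5, an endothelial cadherin, was at 1.24 CPM.

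The spread between animals was read in 6117 genes that averaged 10 CPM or more and had 20 counts or more in every library. Their median CV was 24.9%, with 15.0% and 35.4% as the 10th and 90th percentiles. Counting error alone would give a median of 6.17%, and with it taken out the median was 24.0%. Up to 10000 CPM the CV was lower at higher abundance. Its median was 36.7% at 1 to 10 CPM, 25.5% at 10 to 100 CPM, 19.8% at 100 to 1000 CPM and 14.1% at 1000 to 10000 CPM. In the 9 genes above 10000 CPM it was 15.9%. By class the median CV was 24.8% in 5946 protein-coding genes, 25.5% in 38 lincRNA genes, 24.4% in 7 immunoglobulin constant genes and 27.8% in 22 antisense models. It was higher in transcribed unprocessed pseudogenes (30.1%, 7 genes) and in unprocessed pseudogenes (51.4%, 5 genes), and these differences were not tested. Of these 5 genes, Gm28439 (73.5%), Gm13340 (56.9%) and Gm10925 (51.4%) were highest in vehicle 7 with vehicle 4 next. Those were also the high libraries of the mitochondrial protein genes, and whether reads were shared was not tested. Gm1966 (30.5%) was highest in vehicle 3.

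Much of this spread depended on the total that CPM divides by. TMM (trimmed mean of M-values) scales libraries so that most genes do not shift on average, and its factors were 1.11, 1.03, 1.35, 0.814, 1.09, 0.739 and 0.989 for vehicles 1 to 7. The median CV was 14.0% on that scale. By CPM 72.0% of the genes had their maximum in vehicle 3 and 59.3% their minimum in vehicle 6, and by TMM the shares were 23.8% and 15.3%. These are the libraries in which haemoglobin was lowest and in which Gm23935 was highest. For the abundant genes the change went the other way. By TMM the median CV was 20.3% for genes at 1000 to 10000 CPM and 25.7% for the 9 genes above 10000 CPM. A CV under 10% was found in 166 genes by CPM and in 1437 by TMM, and no gene was in both groups. Which genes count as steady in this blood under this limit therefore depended on the scale.

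**Figure D5:**
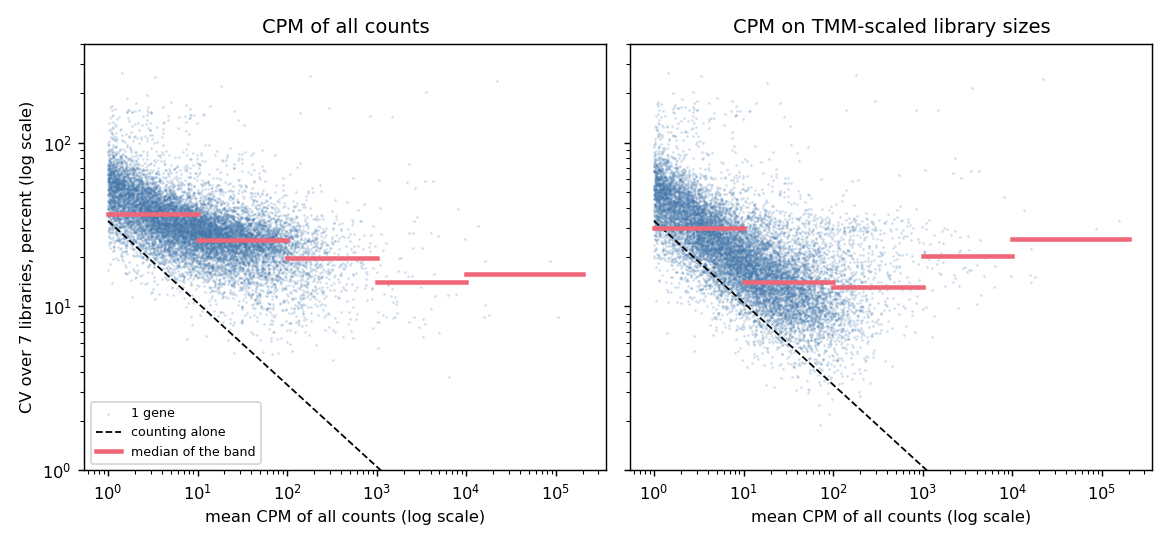
CV between the 7 libraries (vertical axis, percent) against mean CPM (horizontal log axis) for each gene, by CPM of all counts at left and on TMM-scaled libraries at right; the dashed line is the CV that counting alone gives and red points are medians of the abundance bands. The cloud sits lower at right below 1000 CPM and higher at right above it.

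By CPM the 10 steadiest genes were Bpgm (CV 3.71%), Optn (3.92%), Sptbn1 (4.67%), Bin1 (5.13%), Ttc28 (5.16%), Slmap (5.22%), Fundc2 (5.29%), Stradb (5.30%), March2 (5.56%) and Lrrfip2 (5.83%). They include Optn, an autophagy receptor, Sptbn1, a beta spectrin, and March2, a ubiquitin ligase. On the TMM scale the CVs of these 10 genes were 16.5% to 22.6%. The steadiest by TMM were Pnrc1 (1.88%), Ankhd1 (2.20%), Xpr1, a phosphate exporter (2.51%), Ankrd13a (2.71%) and Kmt2c, a histone methyltransferase (2.85%), whose CVs by CPM were 18.5% to 21.3%. The steadiest 100 genes of the scales had none in common.

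Reference genes of quantitative PCR were unlike each other in level and spread. Actb had a CV of 11.7% by CPM and 13.1% by TMM, a like spread on both. Ywhaz (538 ± 34.7 CPM) had 6.45% by CPM and 17.4% by TMM. Eef1a1, the elongation factor (1286 ± 312 CPM), went from 24.2% to 6.47%, and Tbp, the TATA-binding protein (24.4 ± 5.39 CPM), from 22.1% to 8.54%. B2m (2318 ± 653 CPM) remained at 28.2% and 28.8%, and its maximum was in vehicle 7 on both scales (3605 CPM). Gapdh held 41.9 ± 5.95 CPM and Ppia 97.9 ± 9.27 CPM, Hprt 11.2 ± 3.32 CPM and Rpl13a 9.31 ± 3.65 CPM. Gapdh, Ppia and Rpl13a have processed pseudogenes that share their sequence, so their counts are uncertain.

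At the other end, 136 genes had a CV over 50% by CPM and 53 by TMM, with 51 in common. The maximum of 103 of the 136 was in vehicle 3, and by TMM that of 23 of the 53. Of all 6117 genes examined for spread, 72.0% were highest in that library by CPM and 23.8% by TMM. The highest values were those of Gm23935 (238%), CT010467.1 (203%), Lars2 (162%), Gm15564 (155%), Alb (151%), mt-Rnr1 (146%), mt-Rnr2 (143%), the mitochondrial tRNA gene mt-Te (127%), Dnah12 (97.1%) and Fcgr4 (93.0%). Dnah12, an axonemal dynein of cilia, held 38.5 CPM in vehicle 3 and 5.01 to 12.6 CPM elsewhere. All these are genes in which 1 library, or a pair of them, lay far above the rest.

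The sex label matched the data in every library. The Y-linked genes Ddx3y (48.7 ± 11.0 CPM), Uty (45.5 ± 7.60 CPM), Eif2s3y (38.7 ± 8.38 CPM) and Kdm5d (30.4 ± 7.21 CPM) were present in all 7, and Xist, the RNA of the inactive X, was at 0.240 ± 0.146 CPM. By chromosome, chromosome 11 with the alpha haemoglobin genes held 24.1% of counts and chromosome 7 with the beta genes 19.6%. The mitochondrial chromosome held 2.67% ± 1.27, and the Y chromosome 0.0176%. Immediate-early genes, which respond within minutes to many stimuli, summed to 671 ± 205 CPM, led by Jund (190 ± 22.0 CPM) and Klf6 (97.9 ± 33.5 CPM). The clock list summed to 131 ± 39.6 CPM, led by Clock (24.9 ± 8.50 CPM) and Per1 (21.3 ± 13.6 CPM), with Per1 at 51.0 CPM in vehicle 3 and 11.5 to 22.1 CPM in the others.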

How the data were processed

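Per the labels' protocols, RNA of whole blood was extracted by RNeasy with a DNase step, and the kit was Illumina TruSeq Stranded Total RNA. Trim Galore, HISAT2, featureCounts and the build mm10 are named per the submitters' processing notes. Not given in the sources used here: their versions, the gene annotation, strandedness in counting, and how reads with several matches were handled. Values are raw counts per gene as the authors deposited them. The 7 columns of animals with the exposure label Vehicle were used, and the other 8 were left out. Coordinates and exon lengths came from GENCODE release M21 (GRCm38), which held all 55536 gene IDs. Symbols of 27 genes were in date form and were replaced by those of the annotation. CPM used all counts, and TMM factors came from edgeR 4.0.16 and size factors from DESeq2 1.42.0 in R 4.3.3, with no test between groups. Means, CVs, exact (Clopper-Pearson) intervals and thinning to equal depth were computed in Python 3.11.15 and tested on simulated data. Intervals cover counting error only. The widest half-width of the 28 shares was 0.0385 percentage points.

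Genes were named by a rule: the 25 highest means, the 3 highest of each class with at least 0.1% of counts, the 10 lowest and 10 highest CVs, the 2 to 4 highest members of each list (some are not reported here), genes with the widest gap of 1 library, and a few common reference genes. Further members, such as Cmpk2, Gata6 and relatives of Gm23935, were named after their values had been seen. The members, rules and 25 lists were chosen with earlier results of these data known, and 4 more lists were added after values had been seen (resident peritoneal macrophage, patrolling monocyte, classical monocyte and mesothelium). Alternatives were TMM or DESeq2 scaling, values per kb, medians, other filters, leaving out Gm23935 or haemoglobin from totals, and leaving out each library.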

Additional observations from a re-analysis of the deposited data

Results flagged for a closer look

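In each group of 7 values, the gap of the highest or lowest library to its nearest neighbour was set against the whole range (Dixon's ratio, at its 95% critical value for 7). Of 115 values checked, 24 passed. Chance flags about 5% of groups that were not chosen by their values. Many genes here were named for a wide gap or an extreme CV, and 4 lists were added after values had been seen, so the count cannot be set against that rate. They passed through vehicle 6 in 12 cases, vehicle 3 in 8, vehicle 4 in 2, vehicle 2 in 1 and vehicle 5 in 1. Many of the values share genes or libraries and are not independent.

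Vehicle 6 was set apart by the share of counts outside protein-coding genes (19.5%, next 4.85%), the miRNA class (14.1%, next 0.449%) and the rRNA class (1.97%, next 0.277%). The list of abundant nuclear and small RNA genes held 156718 CPM there (next 29499). Single genes were Gm23935 (139788 CPM, next 4406), Gm24270 (1223 CPM, next 13.8), Gm24187 (111 CPM, next 10.8), CT010467.1 (19696 CPM, next 2767), Lars2 (1340 CPM, next 291) and Gm15564 (116 CPM, next 18.4). The ratio of Hba-a1 to Hba-a2 was 1.65 (next 1.30), and Gapdh was low at 29.8 CPM (next 40.8), although by TMM its lowest library was vehicle 3 (35.7).

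Vehicle 3, whose label names a tumor, stood out by the number of genes holding 50% of counts (51, next 22). Its summed levels were high for the monocyte list (3837 CPM, next 2285), the patrolling monocyte list (3228 CPM, next 1529), the clock list (211 CPM, next 137) and the adipocyte list (31.1 CPM, next 15.9). Single genes were Fcgr4 (70.2 CPM, next 19.2), Dnah12 (38.5 CPM, next 12.6) and, by CPM alone, Gm26917 (15207 CPM, next 10225), whose highest library by TMM was vehicle 6 (12240). By TMM 23.8% of genes were highest in that library, against 72.0% by CPM.

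In vehicle 4 the liver gene Mug1 was high (61.9 CPM, next 23.2) and Fundc2 low (48.2 CPM, next 52.9), but by TMM the lowest library of Fundc2 was vehicle 3 (39.6). In vehicle 5 the mature neutrophil list was high (1939 CPM, next 1340), and in vehicle 2 Slmap was high (88.6 CPM, next 80.0), while by TMM its highest library was vehicle 6 (108).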

How the results depend on the processing

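The headline values were marked as moved in 5 cases. For shares the limit was the SD between libraries. For the median CV it was the spread among its values with each library left out, and for counts of genes a fixed fold change. The share of the 25 highest genes was 53.3%, and it was 26.9% with haemoglobin left out of the total. The median CV was 24.9% and became 14.0% with TMM and 13.8% with DESeq2 size factors. Ranked per kb, 16 of the 25 highest genes stayed among them, and the red cell list held 62.3% in place of 41.5%. Leaving out each library in turn marked none of these values as moved. For shares this was fixed in advance, since leaving out 1 of 7 libraries cannot shift a mean by an SD that includes it. For the median CV it was nearly fixed, since the limit was the spread among those same values. The 25-gene share ran from 51.7% to 54.9%, haemoglobin from 34.8% to 37.4%, genes at or above 1 CPM from 12958 to 13296, and the median CV from 20.3% (without vehicle 3) to 26.8%. The share outside protein-coding genes ran from 3.75% (without vehicle 6) to 6.45%. Of 252 values of the other lists, 233 moved less than the SD between libraries. Of the 252, 196 came from leaving out a library and, like the shares, could not move more. All 28 values by TMM stayed under the SD, and 19 of the 28 per kb moved. Of 3072 values of named genes, 73 were marked as moved, 49 of them on leaving out a library. The rule also marks any gene without a count, whose level did not change. Leaving out a library can mark no other gene, so those 49 are no sign of a changed level. No paired analysis was possible because a single group was described. Depth limited genes under about 1 CPM, and 7 animals limit every CV.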
